A study of Homo sapiens with 14 samples.

Results

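Translation efficiency (TE) was compared between late (PP2) and early (PP1) pancreatic progenitors derived from HUES8, an established human embryonic stem cell line. TE means the log2 change of ribosome footprints (Ribo-seq) minus the log2 change of RNA (RNA-seq), so a positive value says that footprints gained on the RNA or lost less than it. The late group held 3 Ribo-seq and 3 RNA-seq libraries of wild-type cells labelled late pancreatic progenitor. The early group held 2 Ribo-seq and 2 RNA-seq libraries of wild-type cells labelled early pancreatic progenitor. All cells came from the same line taken through definitive endoderm (DE), and 4 DE libraries entered the fit for its estimate of spread. Ribo-seq libraries were made from ribosome-bound RNA and RNA-seq libraries from RNA depleted of ribosomal RNA. Genes counted as members if they passed the low-count filter in each assay, which left 14152 of 59050 genes in the table and used 10 of the 14 libraries for the contrast. Of these 14152 genes, 12814 were protein-coding.

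A footprint is the stretch of mRNA that a ribosome shields from nuclease, and the footprint count of a gene follows both the amount of its mRNA and how densely ribosomes sit on it. Pancreatic progenitors are cells of the gut endoderm that express PDX1 and SOX9, and NKX6-1 at a later stage, and go on to form acinar, ductal and endocrine cells. The organ they form is specialised for secretion, which depends on ribosomes docked at the endoplasmic reticulum (ER), chaperones in the ER lumen, and transport through the Golgi.

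The libraries of PP2 did not resemble each other as closely as those of PP1. Protein-coding genes took 94.9%, 43.9% and 79.7% of the counts in Ribo-seq PP2 replicates 1, 2 and 3, against 28.1% and 30.8% in the PP1 replicates. MT-RNR2, a ribosomal RNA of mitochondria, made up 1.65%, 44.6% and 11% of PP2 counts, against 60.8% and 57.7% in PP1. Changes against PP1 correlated across 7792 genes with at least 10 CPM (counts relative to library size) in each assay at Pearson's r = 0.836 between Ribo-seq PP2 replicates 1 and 3, but at 0.594 and 0.687 between replicate 2 and each of these. In RNA-seq, PP2 replicates 1 and 2 gave r = 0.985, and replicate 3 gave 0.681 and 0.667 with them. These are descriptions across genes that share libraries and the same PP1 baseline. Total counts ran from 7197910 to 24186949 in Ribo-seq PP2, from 4710335 to 5515246 in Ribo-seq PP1, and from 16228393 to 21009065 in RNA-seq. Levels below are CPM over library sizes scaled by the trimmed mean of M-values, changes are log2 values of PP2 over PP1, and ± marks the standard error of the fit with 3 PP2 and 2 PP1 libraries in each assay.

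Few genes changed in TE singly. By the edgeR quasi-likelihood test with Benjamini-Hochberg adjustment over all 14152 genes, 0 genes rose (0%) and 4 fell (0.0283%) at an adjusted p under 0.05. At an unadjusted p under 0.05, 843 genes lay higher (5.96%) and 684 lower (4.83%). Among alternative tests, the DESeq2 Wald test gave 71 higher (0.502%) and 151 lower (1.07%), limma voom with 1 weight per group gave 37 higher (0.261%) and 136 lower (0.961%), and voom with a weight per library gave 1111 higher (7.85%) and 823 lower (5.82%). Footprints alone gave 961 genes that rose (6.79%) and 1252 that fell (8.85%), and RNA alone gave 687 that rose (4.85%) and 1114 that fell (7.87%). The median TE change was 0.07 over all tested genes and 0.21 over the 7792 genes with at least 10 CPM in each assay. Above 0 lay 53.9% of all tested genes and 65.9% of those 7792. Footprint and RNA changes went largely together, with Pearson's r = 0.733 over those 7792 genes. Passing in the same direction in both assays were 370 genes higher and 587 lower, while 6 rose in RNA and fell in footprints and 1 did the reverse.

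**Figure D1:**
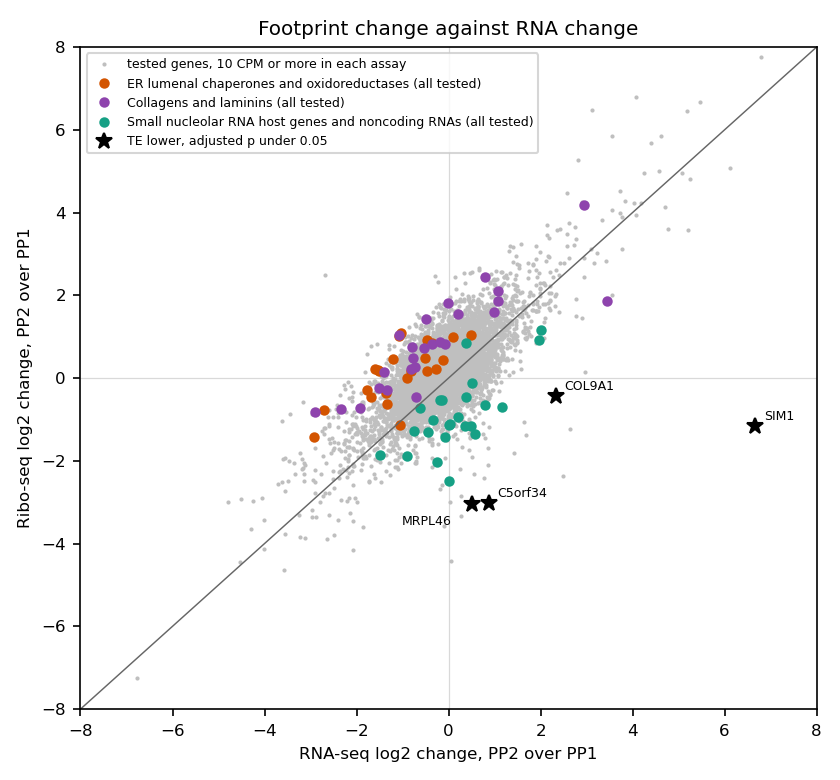
Fitted log2 change of footprints (vertical axis) against fitted log2 change of RNA (horizontal axis), PP2 over PP1, for tested genes with at least 10 CPM in each assay, with all tested members of 3 lists in colour and the 4 genes that passed in TE as stars. The diagonal marks a TE change of 0. Most ER chaperones and collagens lie above it, most noncoding RNAs below it, and SIM1 lies farthest from it among the 4.

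The count of TE calls depended on Ribo-seq PP2 replicate 2. Without that library 510 genes rose (3.68%) and 685 fell (4.94%) among 13862 tested, while leaving out any other single library gave 0 to 4 calls. Of the 843 genes higher at an unadjusted p under 0.05, replicate 2 had the lowest footprint level of the 3 PP2 libraries for 676 (80.2%), against 39.6% of all tested genes. Of the 684 lower genes, it had the highest level for 489 (71.5%), against 39.8% of all tested genes. The protein-coding share of this library lay nearest to PP1, and the part of that share in the TE changes was not tested.

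The 4 genes that fell in TE were SIM1, COL9A1, C5orf34 and MRPL46. Among them, COL9A1 alone had a mean of at least 10 CPM in each assay, and the other 3 are named after their values were seen. COL9A1, on chromosome 6 (70215061 to 70303084, GRCh38.p14), encodes a chain of collagen IX, a collagen that sits on the surface of cartilage fibrils. Its footprints stood at 30.7, 27.6 and 21.9 CPM in PP2 replicates 1 to 3, against 33 and 39.5 CPM in PP1. Its RNA stood at 14.2, 17.9 and 13.3 CPM in PP2, against 2.56 and 3.41 CPM in PP1. Every PP2 library thus had more COL9A1 RNA than either PP1 library, and every PP2 library had fewer footprints. The RNA rose by 2.33 ± 0.30, the footprint change of -0.44 ± 0.27 did not pass (adjusted p = 0.292), and TE fell by 2.77 ± 0.39 (adjusted p = 0.0285). Without Ribo-seq PP2 replicates 1 and 3 the TE change was -2.73 (adjusted p = 0.0714), and over 28 alternatives it lay between -3.13 and -2.48, with the call lost in 13 of them. Whether replicates were separate differentiations is not given in the sources used here, so p-values measure the spread between these libraries, which may be technical.

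SIM1, a transcription factor of the bHLH-PAS family, lies on chromosome 6 (100385009 to 100464921). It had 314, 287 and 378 RNA counts in PP2, against 5 and 0 in PP1, so its fitted RNA rise of 6.67 ± 0.81 rests on 5 PP1 reads and has no firm upper size. Its footprint counts were 103, 31 and 29 in PP2, against 29 and 15 in PP1, or 2.55, 4.09 and 2.09 CPM against 8.18 and 4.56 CPM. The fitted TE change was -7.83 ± 0.98 (adjusted p = 0.0134), and the RNA groups did not overlap. The call was lost in 7 of 27 alternatives, and the value ran from -12.08 without RNA-seq PP1 replicate 1 to -6.71 without RNA-seq PP1 replicate 2 (adjusted p = 0.0907). In PP1 the footprint counts of SIM1 were thus above its RNA counts in each replicate, although the Ribo-seq libraries were shallower.

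C5orf34 (chromosome 5, 43486709 to 43515148) and MRPL46 (chromosome 15, 88459478 to 88467388), a protein of the large mitochondrial ribosomal subunit, fell in footprints by 3.03 ± 0.42 and 3.05 ± 0.40. C5orf34 had 97, 27 and 25 footprint counts in PP2, against 51 and 89 in PP1, and MRPL46 had 74, 22 and 21, against 44 and 70. The footprint counts of these genes on different chromosomes ran nearly in parallel over the 5 libraries, and whether their reads came from a shared source was not tested. Their RNA stood at 8.70 to 15.7 CPM in PP2, against 6.02 to 7.40 CPM in PP1, and did not pass. TE fell by 3.91 ± 0.59 in C5orf34 (adjusted p = 0.0398) and by 3.57 ± 0.56 in MRPL46 (adjusted p = 0.0477). Adjusted p exceeded 0.05 for C5orf34 in 17 of 28 alternatives and for MRPL46 in 20 of 27, and each change stayed negative in all of them.

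The protein-coding genes next in order of p on the lower side did not pass. TCF4, a bHLH transcription factor that partners tissue-specific bHLH proteins, had 27.6, 84.5 and 38.5 CPM of footprints in PP2, against 122.7 and 137.6 CPM in PP1. Its RNA stood at 163, 149 and 177 CPM in PP2, against 48.0 and 53.4 CPM in PP1. Neither assay overlapped between stages, and they moved in opposite directions: footprints fell by 1.38 ± 0.36, RNA rose by 1.69 ± 0.38, and the TE change was -3.07 ± 0.52 (adjusted p = 0.0566). RFX7, a transcription factor of the regulatory factor X family, showed the same opposition, with a TE change of -3.24 ± 0.57 (adjusted p = 0.0570). Its footprints stood at 19.3, 50.04 and 30.1 CPM in PP2, against 137 and 94.2 CPM in PP1, and its RNA at 90.1, 91.5 and 42.4 CPM, against 28.4 and 27.1 CPM.

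Other genes in this group fell in footprints, with RNA changes that did not pass. SLC29A4, a plasma membrane monoamine transporter, had 16.4, 72.1 and 11.9 CPM of footprints in PP2, against 824 and 584 CPM in PP1, while its RNA stood at 67.1, 71.6 and 50.7 CPM, against 54.2 and 68.1 CPM. Its footprints fell by 4.41 ± 0.65 and its TE change was -4.46 ± 0.90 (adjusted p = 0.109). BCAS3, a protein tied to cytoskeletal organisation and autophagy, fell in footprints by 2.59 ± 0.29, with 16.02, 22.7 and 13.4 CPM in PP2, against 105.8 and 102 CPM in PP1. Its RNA lay between 31.8 and 37.2 CPM in PP2, against 36.0 and 38.6 CPM in PP1, and its TE change was -2.45 ± 0.41 (adjusted p = 0.0566). NCAPG, a condensin subunit, the zinc finger genes ZNF397 and ZNF117, and the mitochondrial phosphatase PPTC7 also fell in footprints, by 2.09 to 2.86, with TE changes of -2.95, -3.16, -3.12 and -2.43 for NCAPG, ZNF397, ZNF117 and PPTC7. RNA of NCAPG and ZNF397 was higher in every PP2 library than in either PP1 library, with changes of 0.85 and 0.76 that did not pass. In TCF4, RFX7, SLC29A4, BCAS3, NCAPG, ZNF397, ZNF117 and PPTC7, PP2 replicate 2 was the highest of the 3 PP2 footprint libraries and still lay below each PP1 library. The cadherin gene CDH7 differed from these in that its footprints were level and its RNA rose by 2.96 ± 0.40 (TE change -2.82 ± 0.52, adjusted p = 0.0705).

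**Figure D2:**
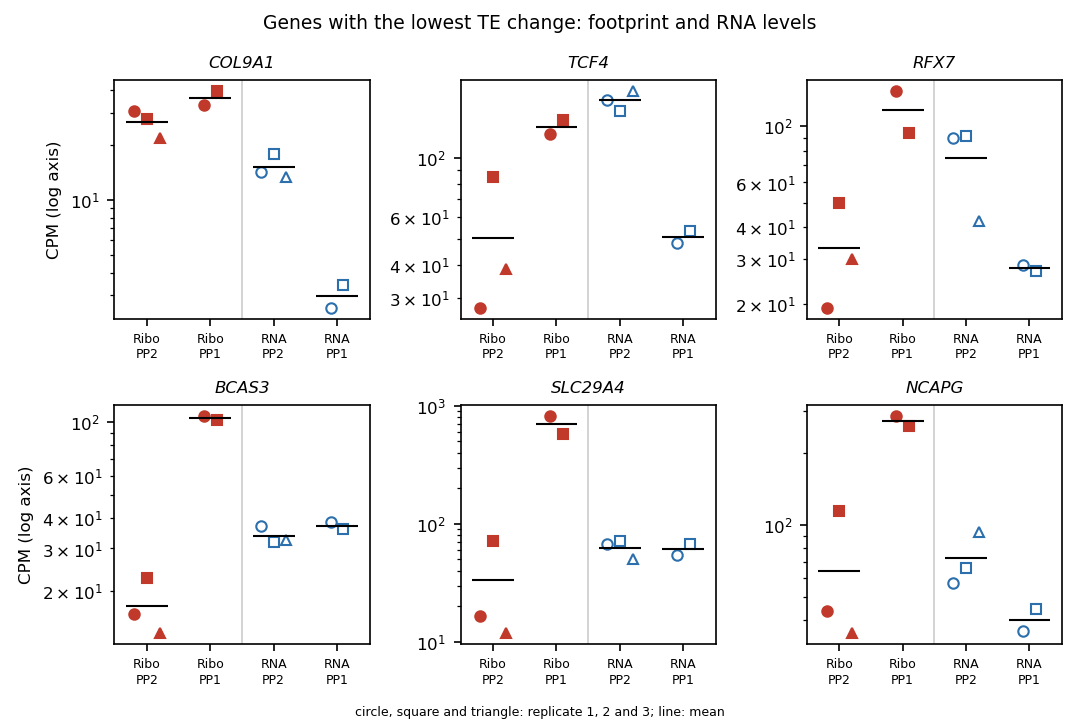
Footprint (filled) and RNA (open) levels in CPM on a log axis for 6 genes with low TE changes, in 3 PP2 and 2 PP1 libraries per assay; lines mark group means. Footprints of TCF4, RFX7, BCAS3, SLC29A4 and NCAPG were lower in every PP2 library than in either PP1 library, and RNA of COL9A1, TCF4, RFX7 and NCAPG was higher in every PP2 library.

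On the higher side, 10 protein-coding genes were ranked by p and none passed, with TE changes of 1.69 to 2.46 and adjusted p of 0.109 to 0.156. CHPF and CHST14 modify chondroitin and dermatan sulfate chains in the Golgi, and KDELR1 is a receptor that returns escaped ER proteins from the Golgi. SLC7A1 imports arginine and lysine, SLC1A1 imports glutamate, CCKBR is the gastrin and cholecystokinin receptor, GPC4 is a glypican, SV2A is a vesicle membrane protein, APLP1 is a relative of the amyloid precursor, and PDZD8 is a lipid transfer protein of the ER membrane. APLP1 rose in both assays, with 136, 78.3 and 142.5 CPM of footprints in PP2, against 2.82 and 3.34 CPM in PP1, and 65.2, 69.9 and 35.5 CPM of RNA, against 7.82 and 8.34 CPM. Its footprint rise of 5.27 ± 0.45 was larger than its RNA rise of 2.81 ± 0.36, for a TE change of 2.46 ± 0.53 (adjusted p = 0.113). CHST14 rose in footprints by 2.56 ± 0.37, at 85.6, 33.4 and 68.5 CPM in PP2, against 11.3 and 10.02 CPM in PP1, with an RNA change of 0.50 ± 0.33 that did not pass. SLC7A1 took the other route: its RNA fell by 1.55 ± 0.35, at 132, 160 and 120 CPM in PP2, against 403 and 401 CPM in PP1, while its footprints stood at 125.5, 61.8 and 187 CPM, against 62.9 and 77.2 CPM. The footprint groups of SLC7A1 overlapped through PP2 replicate 2, and its TE change was 2.38 ± 0.51 (adjusted p = 0.112). GPC4 and CCKBR also fell in RNA, by 2.37 ± 0.31 and 1.78 ± 0.34, with footprint changes of -0.40 and 0.57 that did not pass.

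Chaperones and oxidoreductases of the ER lumen fold secreted and membrane proteins. Of 23 tested members, 10 fell and 0 rose in RNA, against 7.87% of all tested genes that fell, and 1 fell and 0 rose in footprints, against 8.85% that fell. In TE 0 passed, against 0% higher and 0.0283% lower over all genes. The median TE change of the list was 1.2, against 0.07 over all tested genes and 0.21 over those with at least 10 CPM in each assay. Of its 23 members 22 lay above 0, against 53.9% of all tested genes and 65.9% of those with at least 10 CPM. Its median footprint change was 0.19 and its median RNA change -1.05. The DESeq2 Wald test called 4 members higher (0.502% of all genes), limma voom with group weights 4 (0.261%), and the edgeR fit without Ribo-seq PP2 replicate 2 called 13 (3.68%).

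The size of this shift differed between libraries. The list's median footprint change against PP1 was 0.42, -0.54 and 0.56 in PP2 replicates 1, 2 and 3, while its median RNA change was -1.11, -1.04 and -0.68. Replicate 2 had the lowest footprint level of the 3 for 21 of 23 members. With that replicate as the lone Ribo-seq library of PP2, the median TE change was 0.75, and it was 0.64 when RNA-seq PP2 replicate 3 was left out too, against 0.03 and 0.05 over all tested genes, a combination chosen after seeing the data. Those fits assume that the lone library varies like the other groups.

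HSPA5 (also called BiP), the main Hsp70 chaperone of the ER, had 707, 273 and 561 CPM of footprints in PP2 replicates 1 to 3, against 906 and 857.5 CPM in PP1. Its RNA stood at 429, 448 and 108 CPM in PP2, against 2155 and 2102 CPM in PP1. Neither assay overlapped between stages: RNA fell by 2.7 ± 0.51 (adjusted p = 0.00259), footprints changed by -0.78 ± 0.50 without passing, and the TE change was 1.92 ± 0.72 (adjusted p = 0.325). CALR, a lectin chaperone that binds glycoproteins and calcium, fell in RNA by 1.53 ± 0.40, with 631, 679 and 522 CPM in PP2, against 1790 and 1734 CPM in PP1. Its footprints overlapped between stages, at 2893, 1571 and 3908 CPM, against 2354 and 2525 CPM. PDIA3, a disulfide isomerase that works with the lectin chaperones, had 404, 154 and 607 CPM of footprints in PP2, against 188 and 194 CPM in PP1, and 480, 513 and 217 CPM of RNA, against 894 and 806 CPM. Its footprints were higher than PP1 in replicates 1 and 3 and lower in replicate 2, and its TE change was 2.10 ± 0.66 (adjusted p = 0.269).

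ERP29, P4HB, HYOU1 and PDIA4, further folding factors of the lumen, gave TE changes of 2.13 ± 0.53, 1.82 ± 0.72, 1.68 ± 0.49 and 1.67 ± 0.48. RNA of the last 3 fell, by 1.6, 1.51 and 1.21. SDF2L1, which assists HSPA5, fell most in RNA within the list, by 2.93 ± 0.31, and was the member that also fell in footprints, by 1.43 ± 0.30, with 15.95, 12.3 and 9.96 CPM in PP2, against 33.3 and 35.8 CPM in PP1. HSP90B1 (GRP94) and the membrane lectin CANX changed less in RNA, by -0.46 ± 0.40 and -0.51 ± 0.37, with TE changes of 0.62 ± 0.58 and 0.99 ± 0.53. The level of HSP90B1 footprints was 1623, 1143 and 2963 CPM in PP2, against 1901 and 1498 CPM in PP1.

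**Figure D3:**
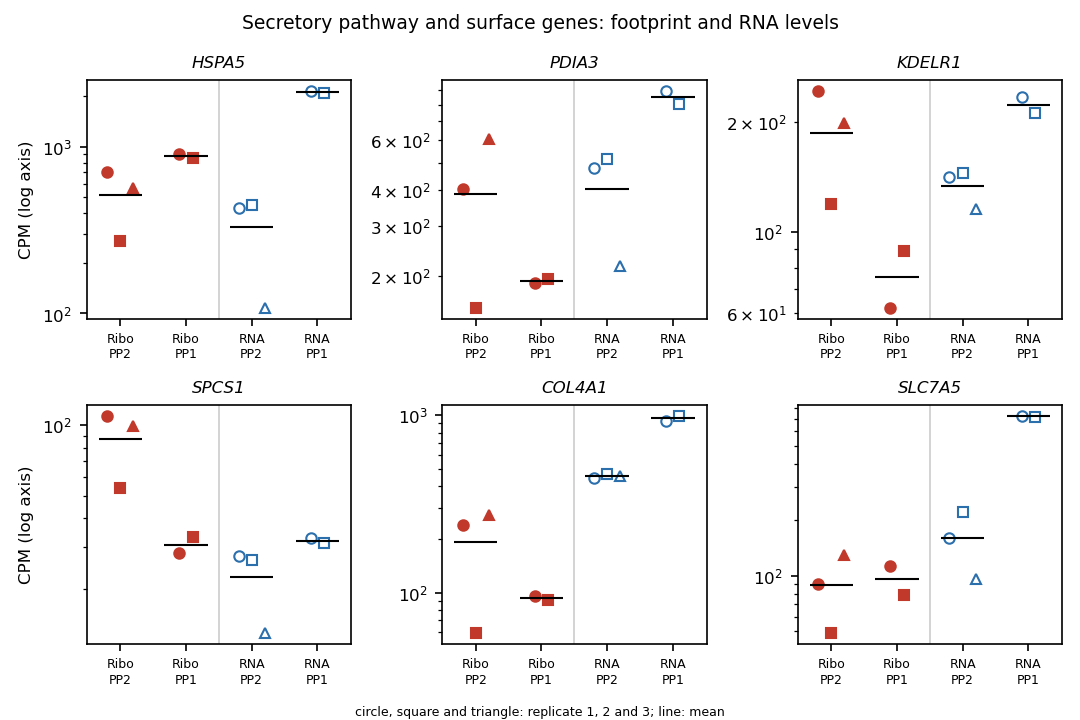
Footprint (filled) and RNA (open) levels in CPM on a log axis for HSPA5, PDIA3, KDELR1, SPCS1, COL4A1 and SLC7A5 in 3 PP2 and 2 PP1 libraries per assay; lines mark group means. RNA was lower in every PP2 library than in either PP1 library for all 6, and among the PP2 footprint libraries replicate 2 (square) was the lowest for each.

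Many ER chaperone promoters hold the ER stress response element, the site where ATF6 acts together with NF-Y when unfolded proteins accumulate. The element, CCAAT and CCACG with any 9 bases between them, was searched on both strands in RefSeq promoters (GRCh38.p14) of 250 bases before to 50 bases after each start, where 22 of the tested chaperones had an entry. It was present for 7 of these 22 genes (31.8%), namely HSPA5, CALR, CANX, CRELD2, ERO1B, HSP90B1 and PDIA6, and for 15 of 10846 tested genes with an entry (0.138%). The windows of 5 genes are shown because their RNA changes differ while the element is shared. Capitals mark the element, or its reverse complement in CALR, CRELD2 and HSP90B1.
HSPA5, chr9:125241371-125241429, minus strand: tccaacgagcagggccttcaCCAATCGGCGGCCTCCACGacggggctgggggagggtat
CALR, chr19:12938364-12938422, plus strand: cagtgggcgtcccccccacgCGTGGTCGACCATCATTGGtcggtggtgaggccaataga
CRELD2, chr22:49918534-49918592, plus strand: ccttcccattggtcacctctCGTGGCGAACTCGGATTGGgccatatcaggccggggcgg
PDIA6, chr2:10812833-10812891, minus strand: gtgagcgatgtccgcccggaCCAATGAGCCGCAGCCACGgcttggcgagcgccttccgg
HSP90B1, chr12:103930301-103930359, plus strand: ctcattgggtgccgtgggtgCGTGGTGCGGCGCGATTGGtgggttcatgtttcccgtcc
The RNA changes of these genes were -2.7, -1.53, -1.68, -0.36 and -0.46 in that order, and their footprint changes -0.78, 0.19, -0.45, 0.85 and 0.17. Over the 15 tested genes with the element, the median change was -0.59 in RNA, -0.45 in footprints and 0.39 in TE, and 12 had a TE change above 0. Over 10831 genes without it the medians were -0.01, 0.04 and 0.08, and 5971 had a TE change above 0. Of the 15 genes, 7 are the chaperones named here, and TE changes of the others ran from -0.33 for EIF2A to 0.96 for ALG12. ALG12 and CRELD2 share the same copy of the element in overlapping promoter windows, as do EIF2A and SERP1. The 15 genes are therefore not all separate carriers. XBP1, a transcription factor of the same response whose own promoter holds the element, fell in both assays, by 1.67 ± 0.34 in RNA and 1.28 ± 0.34 in footprints, with a TE change of 0.39 ± 0.48. A match describes these letters and not binding.

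Other lists of the secretory route had TE medians above 0 and below that of the chaperones, and 0 of their members passed in TE. ER-associated degradation and stress sensors, which remove misfolded proteins, had a median TE change of 0.79 with 18 of 19 members above 0. In RNA 10 members fell and 1 rose, against 7.87% and 4.85% of all tested genes. OS9, a lectin that hands misfolded glycoproteins to degradation, rose in footprints by 1.03 ± 0.31, with an RNA change of -0.21 ± 0.29 that did not pass, at 518, 289 and 587 CPM of footprints in PP2, against 219 and 235 CPM in PP1. Translocon, signal recognition and N-glycosylation genes had a median of 0.85 with 25 of 30 above 0. Here 0 members passed in RNA, against 4.85% of all tested genes that rose and 7.87% that fell. In footprints 4 rose and 0 fell, against 6.79% and 8.85%. SPCS1, a subunit of the signal peptidase, rose in footprints by 1.51 ± 0.37, with 109.5, 53.6 and 99.4 CPM in PP2, against 28.5 and 33.1 CPM in PP1. DDOST, a subunit of the oligosaccharyltransferase, rose by 1.21 ± 0.33, with 527, 245 and 456 CPM, against 176 and 178 CPM. The footprint groups of SPCS1, DDOST and OS9 did not overlap, and their TE changes were 2.03 ± 0.49, 1.83 ± 0.45 and 1.24 ± 0.42 (adjusted p = 0.163, 0.163 and 0.285). SEC63, a translocon partner, reached 2.11 ± 0.55 (adjusted p = 0.179).

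Golgi and vesicle transport genes had a median TE change of 0.57, with 26 of 30 above 0. KDELR1, named above, rose in footprints by 1.31 ± 0.33, with 243, 119 and 198 CPM in PP2, against 62.1 and 89.0 CPM in PP1, and had a TE change of 2.04 ± 0.45 (adjusted p = 0.118). TMED9, a cargo receptor of transport vesicles, fell in RNA by 1.2 ± 0.34 and had a TE change of 1.61 ± 0.50. With replicate 2 as the lone Ribo-seq library of PP2 the Golgi median was -0.21, that of the translocon list 0.15 and that of the degradation list 0.34. The direction of the Golgi list therefore rested on PP2 replicates 1 and 3, and replicate 2 had the lowest footprint level for 29 of its 30 members.

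**Figure D4:**
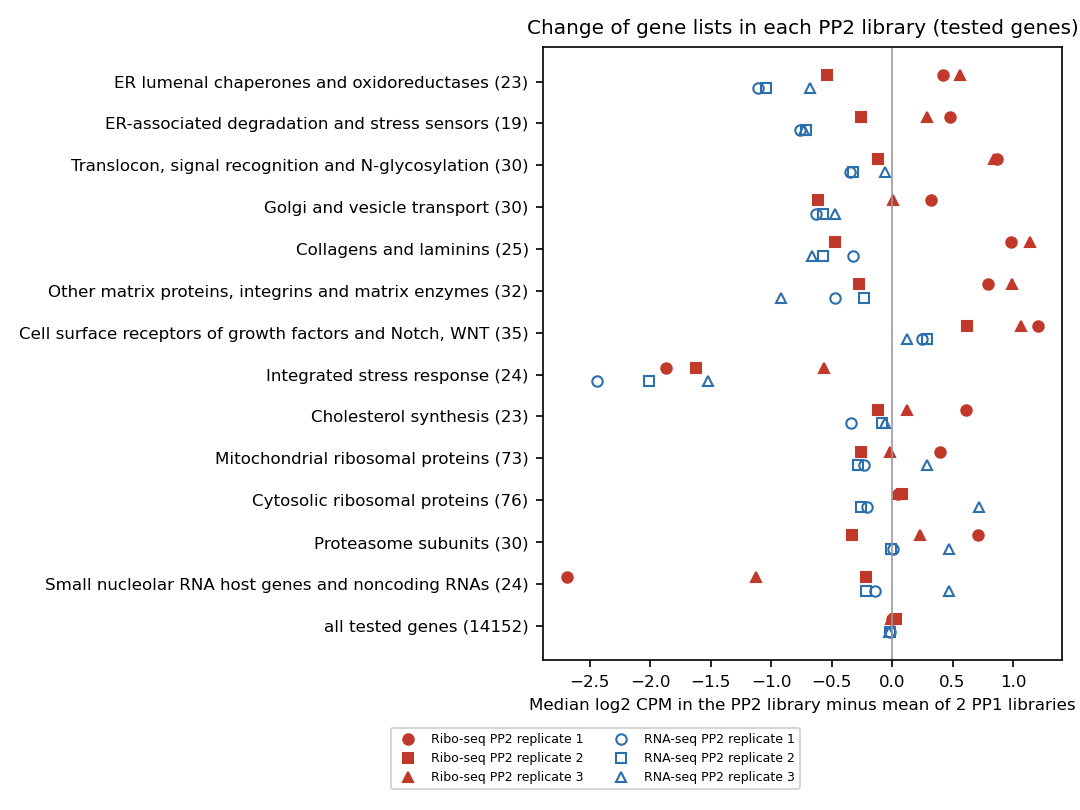
Median log2 change against the mean of the 2 PP1 libraries in each PP2 library, for footprints (filled, red) and RNA (open, blue), over the tested genes of 13 lists and over all tested genes; numbers in brackets are tested genes. For the ER, Golgi and matrix lists, footprint replicates 1 and 3 lie above footprint replicate 2, and for the noncoding RNAs they lie below it. Receptors, cholesterol synthesis, mitochondrial ribosomal proteins and proteasome subunits share the order of the ER lists. The integrated stress response and cytosolic ribosomal proteins do not.

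Secreted and surface proteins, the clients of that route, gave higher medians still in the case of collagens and laminins. The list leaves out the collagen IX genes, among them COL9A1, which fell in TE. Of 25 tested collagen and laminin genes 24 had a TE change above 0, and the median was 1.24. In this list 5 rose and 0 fell in footprints, against 6.79% and 8.85% of all tested genes, and 2 rose and 6 fell in RNA, against 4.85% and 7.87%. COL4A1 and COL4A2, the chains of the common basement membrane collagen, had TE changes of 2.12 ± 0.65 and 1.91 ± 0.66 (adjusted p = 0.257 and 0.289). COL4A1 footprints stood at 242, 59.2 and 275 CPM in PP2, against 95.9 and 91.1 CPM in PP1, and its RNA at 441.5, 469 and 456 CPM, against 932 and 992 CPM. The 3 PP2 RNA libraries were close together and below PP1, while PP2 footprints lay above PP1 in replicates 1 and 3 and below it in replicate 2. COL18A1, the source of endostatin, rose in footprints by 1.82 ± 0.38 in non-overlapping groups, at 970, 403.5 and 764 CPM in PP2, against 199 and 204 CPM in PP1, with an RNA change of -0.02 ± 0.36. COL9A3, a partner chain of COL9A1 that is likewise outside the list, went the other way from it: RNA fell by 1.61 ± 0.26, footprints changed by -0.06 ± 0.28, and the TE change was 1.56 ± 0.39 (adjusted p = 0.166).

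Other matrix proteins, integrins and matrix enzymes had a median TE change of 1.06 with 28 of 32 above 0. In footprints 9 rose and 2 fell, against 6.79% and 8.85% of all tested genes. AGRN, a basement membrane proteoglycan, rose in footprints by 1.44 ± 0.46, at 820, 354 and 771 CPM in PP2, against 229 and 249 CPM in PP1. FN1, fibronectin, had 11830, 3148 and 18520 CPM of footprints in PP2, against 8379 and 7775 CPM in PP1, and 25400, 26470 and 20010 CPM of RNA, against 60660 and 58570 CPM. Its TE change of 1.78 ± 1.04 (adjusted p = 0.572) was -0.05 with replicate 2 as the lone Ribo-seq library of PP2. In the same fit the median was 0.24 for collagens and laminins and 0.12 for other matrix genes, and replicate 2 had the lowest footprint level for 23 of 25 and 31 of 32 members. Summed CPM of the mesenchyme markers COL1A1, COL3A1, PDGFRB, TWIST1 and ACTA2 ran from 135 to 598 in Ribo-seq PP2, against 215 to 223 in PP1, and from 145 to 327 in RNA-seq PP2, against 321 to 367 in PP1. These sums join markers that moved in opposite directions. RNA of COL3A1 and PDGFRB was higher in every PP2 library than in either PP1 library, and RNA of COL1A1, TWIST1 and ACTA2 was lower. PDGFRB footprints stood at 39.3, 14.8 and 37.8 CPM in PP2, against 10.7 and 6.38 CPM in PP1. COL1A1 RNA stood at 59.9, 35.1 and 4.84 CPM in PP2, against 230 and 266 CPM in PP1. Summed CPM of the endothelium markers PECAM1, CDH5 and KDR ran from 25.5 to 58.6 in Ribo-seq PP2, against 10 to 19.5 in PP1, and from 30.1 to 46.7 in RNA-seq PP2, against 8.92 to 9.18 in PP1, with no overlap between stages in either assay. The part of either cell type in the matrix, basement membrane and receptor values was not tested. In such bulk samples, fewer cells of a type and less RNA per cell cannot be told apart.

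Receptors of growth factors, Notch and WNT had a median TE change of 0.75 with 32 of 35 above 0, and 17 rose and 1 fell in footprints, against 6.79% and 8.85% of all tested genes. In RNA 6 rose and 4 fell, against 4.85% and 7.87%. FZD2, a WNT receptor, rose in both assays, by 2.56 ± 0.31 in footprints and 1.15 ± 0.29 in RNA. It had 252.5, 132 and 145 CPM of footprints in PP2, against 32.2 and 27.6 CPM in PP1. NOTCH2 rose in footprints by 1.51 ± 0.33, with 233, 99.3 and 188 CPM, against 59.2 and 62.3 CPM, and its RNA of 408, 399 and 366 CPM, against 326 and 349.5 CPM, did not pass. The TE changes were 1.42 ± 0.40 and 1.30 ± 0.45 (adjusted p = 0.206 and 0.289). The median of this list was 0.45 with replicate 2 as the lone Ribo-seq library of PP2, and 0.34 when RNA-seq PP2 replicate 3 was also left out.

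Hepatic and gut tube secreted proteins, made in large amounts by early endoderm, had a median TE change of 0.90, which was -0.65 with replicate 2 as the lone Ribo-seq library. Replicate 2 had the lowest footprint level for all 15 tested members. SERPINA1, the protease inhibitor alpha-1-antitrypsin, rose in both assays, with 12570, 5177 and 11790 CPM of footprints in PP2, against 114 and 110 CPM in PP1, and 2787, 2807 and 1819 CPM of RNA, against 60.3 and 75.1 CPM. Its footprint rise of 6.46 ± 0.66 and RNA rise of 5.19 ± 0.62 left a TE change of 1.27 ± 0.69 (adjusted p = 0.534). APOB, the scaffold of low-density lipoprotein, fell in both, with 263, 87.5 and 430 CPM of footprints in PP2, against 991 and 1017 CPM in PP1, and 396.5, 451 and 630 CPM of RNA, against 4246 and 4732 CPM. Cholesterol synthesis enzymes, which reside largely in the ER membrane, had a median TE change of 0.61 with 17 of 23 above 0 (73.9%). Of tested genes with at least 10 CPM in each assay, 65.9% lay above 0. The cholesterol synthesis median was 0.09 with replicate 2 as the lone Ribo-seq library of PP2.

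Genes of the integrated stress response, which ATF4 induces when amino acids run short or the ER is stressed, included many that fell in both assays. Of 24 tested members, 16 fell and 0 rose in RNA (median -1.78), against 7.87% of all tested genes that fell, and 11 fell and 0 rose in footprints (median -1.2), against 8.85%. The median TE change was 0.68 with 21 of 24 above 0. It was 0.11 with replicate 2 as the lone Ribo-seq library of PP2 and 0.27 to 1.04 over fits that left out 1 library, the lowest without Ribo-seq PP2 replicate 3. SLC7A5, the light chain of a leucine importer, fell in RNA by 2.19 ± 0.40, with 160, 221 and 95.7 CPM in PP2, against 728 and 722 CPM in PP1. Its footprints overlapped, at 89.6, 49.0 and 129 CPM in PP2, against 112.8 and 78.7 CPM in PP1, for a TE change of 2.09 ± 0.57 (adjusted p = 0.194). DDIT3 (CHOP), a transcription factor of prolonged stress whose mRNA carries an inhibitory upstream reading frame, had 2.95, 18.8 and 34.8 CPM of footprints in PP2, against 102 and 85.7 CPM in PP1. It fell by 2.33 ± 0.65 in footprints and 3.15 ± 0.66 in RNA, and its TE change was 0.82 ± 0.93. ASNS, asparagine synthetase, stood opposite to the list with a TE change of -3.40 ± 0.96 (adjusted p = 0.206), but on few footprints, at 0.0743, 0.264 and 0.0721 CPM in PP2, against 5.08 and 2.43 CPM in PP1. Cytosolic aminoacyl-tRNA synthetases, several of which ATF4 also induces, had a median TE change of 0.35, with 6 of 20 falling in RNA, against 7.87% of all tested genes, and 4 in footprints, against 8.85%. That median was -0.21 with replicate 2 as the lone Ribo-seq library of PP2, which had the lowest footprint level for 18 of the 20.

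The translation machinery itself stayed near the overall median. Cytosolic ribosomal protein genes had a median TE change of -0.06 with 35 of 76 above 0, and translation factors had 0.16 with 27 of 47 above 0. In RNA 0 of the 76 ribosomal protein genes passed, against 4.85% of all tested genes that rose and 7.87% that fell. In footprints 3 fell and 0 rose, against 8.85% and 6.79%. The medians of mitochondrial ribosomal proteins, nuclear-encoded respiratory chain genes, proteasome subunits, glycolysis and cell cycle genes were 0.18, 0.25, 0.18, 0.17 and 0.17. With replicate 2 as the lone Ribo-seq library of PP2 they were -0.22, -0.24, -0.41, -0.23 and -0.29, so each changed sign. That replicate had the lowest footprint level for 27 of 30 proteasome subunits and 15 of 18 glycolysis genes. Most ribosomal protein mRNAs begin with a C followed by a pyrimidine run (a TOP start), through which mTOR sets their translation. A C and at least 4 pyrimidines stood at an annotated start for 45 of 60 tested ribosomal protein genes with a RefSeq promoter (75%) and for 800 of 10846 tested genes (7.38%). The first 15 bases of 4 such transcripts are shown, with the run in capitals, because TE changes of either sign occur among them.
RPL34, chr4:108620576-108620590, plus strand: CCTCTTCCggggacg
RPLP2, chr11:809967-809981, plus strand: CCTTTTCCTCCCTgt
EEF1A1, chr6:73521018-73521032, minus strand: CTTTTTCgcaacggg
TPT1, chr13:45341169-45341183, minus strand: CTTTTCCgcccgctc
RPL34 and RPLP2 encode proteins of the large ribosomal subunit, EEF1A1 the elongation factor that brings tRNA to the ribosome, and TPT1 a growth-related protein. Their TE changes were -1.26 ± 0.39, 1.21 ± 0.48, -1.16 ± 0.64 and -1.05 ± 0.52, and none passed. RPL34 fell in footprints by 0.95 ± 0.28, with 11.8, 13.7 and 12.5 CPM in PP2, against 23.4 and 25.5 CPM in PP1, while its RNA overlapped at 261, 267 and 422 CPM, against 226 and 287 CPM. RPLP2 footprints stood at 198.5, 223 and 458 CPM in PP2, against 169 and 195 CPM in PP1. Over the 45 ribosomal protein genes with such a start the median TE change was 0.01, over 755 other genes with it 0.13, and over 10046 genes with another start 0.08. RPL7 had the lowest TE change of the list, -2.12 ± 0.68, on footprints of 1.88, 5.68 and 1.73 CPM in PP2, against 10.4 and 8.20 CPM in PP1. Its RNA ran from 429 to 935.5 CPM in PP2. Ribosomal protein genes have many near-identical processed pseudogenes, so short reads may be shared or dropped and single members are uncertain. Mean footprints of EEF1A1 were 42.4 CPM in PP2 and 59.3 CPM in PP1, beside 8471 and 5294 CPM of RNA. Those of TPT1 were 56.6 and 72.1 CPM, beside 1008 and 621 CPM of RNA. The part of shared or dropped reads in these low footprint levels was not tested.

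Pancreatic progenitor regulators included several that rose in each assay. Of 19 tested pancreatic progenitor regulators, 8 rose and 1 fell in footprints, against 6.79% and 8.85% of all tested genes, and 7 rose and 2 fell in RNA, against 4.85% and 7.87%. The median TE change was 0.38, and it was -0.01 without RNA-seq PP2 replicate 3. NKX6-1, a homeodomain factor of later pancreatic progenitors, had 185.5, 245 and 134 CPM of footprints in PP2, against 0.846 and 1.22 CPM in PP1. Its RNA stood at 161, 141 and 70.1 CPM, against 0.484 and 0.420 CPM, so that rises of 7.51 ± 0.56 and 8.08 ± 0.54 left a TE change of -0.57 ± 0.78. The PP1 levels of NKX6-1 rest on 3 and 4 footprint counts and 7 and 8 RNA counts, and the TE change ran from -5.57 to -0.20 over the alternatives. PDX1, the factor that defines the pancreatic domain, passed in footprints alone, where it rose by 1.81 ± 0.56, at 81.8, 68.8 and 60.5 CPM in PP2, against 21.7 and 18.5 CPM in PP1. Its RNA was 227, 208 and 41.4 CPM in PP2, against 64.6 and 58.7 CPM in PP1, and RNA-seq PP2 replicate 3 alone lay below PP1. SOX9, a progenitor factor kept in ducts, behaved alike, with 546, 549 and 98.6 CPM of RNA, against 130 and 155 CPM. The TE changes of PDX1 and SOX9 were 0.44 ± 0.73 and 0.38 ± 0.73, and -0.02 and -0.08 without that RNA library.

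CHGA, a granule protein of endocrine cells, rose more in footprints than in RNA, by 8.25 ± 0.67 against 6.11 ± 0.57, with a TE change of 2.15 ± 0.87 (adjusted p = 0.371). It had 353.5, 135 and 325 CPM of footprints in PP2, against 0.564 and 1.22 CPM in PP1, and 50.3, 72.3 and 69.0 CPM of RNA, against 1.25 and 0.629 CPM. The PP1 levels of CHGA rest on 2 and 4 footprint counts and 18 and 12 RNA counts, and its TE change ran from 0.71 to 2.85 over the alternatives. Over 15 tested endocrine genes the median TE change was 0.26, with 9 above 0 and values from -4.60 to 3.51. That median was -0.12 with replicate 2 as the lone Ribo-seq library of PP2. The hormone genes INS and GCG were at 0 in both assays at PP1 and near 0 at PP2, with at most 10 footprint counts and 1 RNA count per library. The hormone gene SST had 403, 66 and 157 footprint counts in PP2, against 0 in each PP1 library, and 6, 6 and 5 RNA counts, against 0 and 1. Blood markers were at or near 0, with HBG1 at 0 in every group. Summed neural markers ran from 2.20 to 7.39 CPM in Ribo-seq PP2, against 3.34 to 5.08 CPM in PP1. In RNA-seq they ran from 8.13 to 9.08 CPM in PP2, against 4.93 to 5.67 CPM in PP1, with no overlap between stages.

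Of 951 protein-coding genes with at least 10 CPM in each assay whose RNA passed, 99 that rose and 146 that fell had a TE change within 0.25 of 0. Over all 7792 tested genes with that minimum, the quartiles of the TE change were -0.14 and 0.61. How many of them lay within 0.25 of 0 was not counted. KIRREL2, an immunoglobulin-family protein of cell contacts, rose by 4.95 ± 0.73 in footprints and 5.08 ± 0.69 in RNA, with 106, 55.3 and 68.0 CPM of footprints in PP2, against 3.67 and 1.22 CPM in PP1. CUBN, an endocytic receptor of the gut and kidney, fell by 4.12 ± 0.50 in footprints and 4.02 ± 0.47 in RNA, with 1.76, 1.45 and 1.59 CPM of footprints in PP2, against 29.9 and 26.7 CPM in PP1. Their TE changes were -0.13 ± 0.90 and -0.10 ± 0.64, near 0 because the genes were picked that way.

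An RNA change of at least 1 log2 unit met a footprint change within 0.25 of 0 in 56 of 803 such genes, 46 of them with lower RNA and 10 with higher RNA. Over all 7792 tested genes with at least 10 CPM in each assay, 605 fell and 360 rose in RNA by any size. The lower side was thus larger to begin with. How many of all those genes had a footprint change within 0.25 of 0 was not counted. LRP1, an endocytic receptor, had 385.5, 397 and 81.7 CPM of RNA in PP2, against 1002 and 1032 CPM in PP1, and 487, 271 and 617 CPM of footprints, against 447 and 380 CPM. B4GALT1, a Golgi galactosyltransferase, had 169.5, 177 and 78.3 CPM of RNA, against 448 and 492 CPM, and 143, 98.0 and 140 CPM of footprints, against 135 and 138 CPM. Together with SLIT3, a secreted guidance protein, these genes had TE changes of 1.97 ± 0.73, 1.63 ± 0.46 and 2.10 ± 0.73 (adjusted p = 0.315, 0.206 and 0.289). In the other direction, C9orf72, which takes part in autophagy, and MBOAT2, a phospholipid acyltransferase, rose in RNA by 1.58 ± 0.36 and 1.31 ± 0.32, with TE changes of -1.37 ± 0.50 and -1.24 ± 0.46. MBOAT2 footprints stood at 9.16, 17.4 and 9.31 CPM in PP2, against 10.4 and 12.2 CPM in PP1. All genes named here were picked for a changed RNA beside level footprints. The sign and much of the size of their TE changes follow from that choice and are no separate result.

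Noncoding RNAs lay on the lower side. Small nucleolar RNA host genes and other noncoding RNAs had a median TE change of -1.01 with 1 of 24 above 0, long noncoding RNAs had -0.86 with 74 of 430 above 0, and pseudogenes had -0.73 with 60 of 233 above 0. The footprint change of the host gene list was -2.69, -0.22 and -1.13 in PP2 replicates 1, 2 and 3, and its RNA change -0.14, -0.22 and 0.47. For long noncoding RNAs the footprint values were -1.57, 0.26 and -1.06. The order of the libraries was that of their protein-coding share, 94.9%, 43.9% and 79.7%, and the part of that share in these values was not tested. With replicate 2 as the lone Ribo-seq library the medians were -0.20 for the host gene list and 0.01 for long noncoding RNAs. SNHG15, a host gene, fell in footprints by 2.49 ± 0.53, with 3.02, 14.4 and 4.11 CPM in PP2, against 42.6 and 34.6 CPM in PP1, and had a TE change of -2.52 ± 0.75 (adjusted p = 0.237). SNHG5 and ZFAS1, further host genes, had TE changes of -1.53 ± 0.53 and -1.92 ± 0.73. For such genes a footprint count need not come from a translating ribosome.

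**Figure D5:**
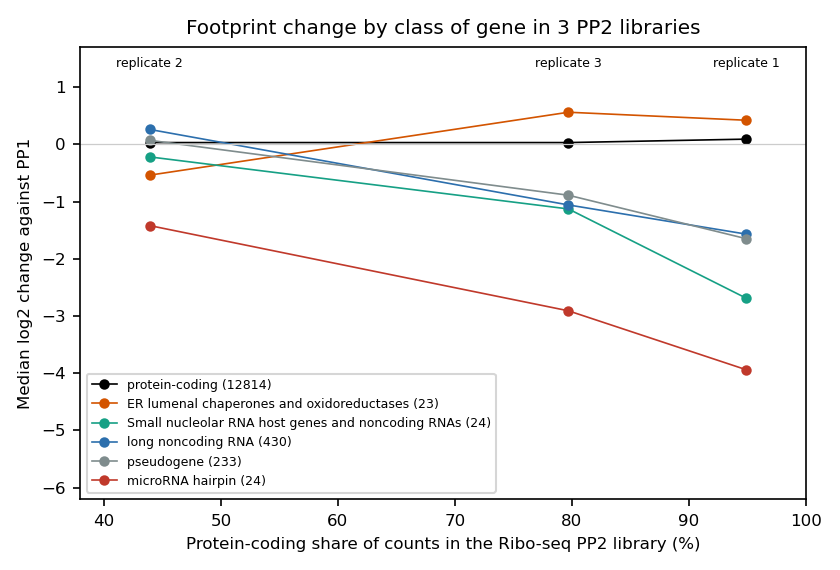
Median log2 change of footprints against PP1 (vertical axis) for 6 classes of genes in the 3 Ribo-seq PP2 libraries, placed by the protein-coding share of each library's counts (horizontal axis, percent); numbers in brackets are tested genes. Protein-coding genes stay between 0.03 and 0.09, ER chaperones are at -0.54, 0.56 and 0.42 from left to right, and microRNA hairpins at -1.42, -2.91 and -3.94.

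Some microRNA genes, whose hairpins are not translated, had far more counts in the Ribo-seq libraries than in RNA-seq, MIR302A and MIR27B among them, while others such as MIR181A2 and MIR561 did not. Of 24 tested hairpin genes, 16 fell and 0 rose in footprints, against 8.85% of all tested genes that fell, and the median footprint change was -2.42. Mature sequences from RefSeq are shown for the 5 genes described here, with the seed (bases 2 to 8) in capitals, because 4 of them share a seed. The table counts each hairpin gene as a whole, so the arm that gave the reads cannot be told apart.
hsa-miR-27b-3p: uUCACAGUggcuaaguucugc
hsa-miR-302a-3p: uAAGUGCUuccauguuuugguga
hsa-miR-302b-3p: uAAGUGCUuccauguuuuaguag
hsa-miR-302c-3p: uAAGUGCUuccauguuucagugg
hsa-miR-302d-3p: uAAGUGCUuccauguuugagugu
The miR-302 family, abundant in pluripotent cells, lies in a cluster on chromosome 4. MIR302A had 1890, 4338 and 851 counts in Ribo-seq PP2 replicates 1 to 3, against 35446 and 29383 in PP1, and at most 4 counts in any of these RNA-seq libraries. MIR302B had 122, 76 and 49 counts, against 533 and 455, and MIR302C and MIR302D were likewise lower in every PP2 library. Since the RNA-seq counts of the 4 genes were 0 to 5, no TE value is given for them. MIR27B had 7911, 6675 and 8802 Ribo-seq counts in PP2, against 17327 and 11843 in PP1, and 14, 12 and 27 RNA-seq counts, against 5 and 8. Its footprints fell by 2.89 ± 0.48, and its TE change was -4.08 ± 0.83 (adjusted p = 0.109), a value that describes RNA bound or co-purified in the Ribo-seq fraction and not translation. MicroRNA genes took 0.378%, 1.2% and 0.841% of counts in Ribo-seq PP2 replicates 1, 2 and 3, against 2.04% and 2.06% in PP1.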

How the data were processed

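RNA-seq and Ribo-seq reads were counted per gene by the authors, and the deposited table holds raw counts for 59050 genes in 14 libraries, with gene length as another value that was not used. Per the submitters' processing notes, cutadapt 1.18, Bowtie 1.2, STAR 2.7.1a and featureCounts 1.6.4 were used with hg38; which tool served which assay, the strand setting and the counted feature are not given in the sources used here. Without strand, reads of overlapping antisense genes cannot be told apart.

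All libraries were fitted together in edgeR 4.0.16 (R 4.3.3) with 1 mean per assay and stage, trimmed mean of M-values scaling within each assay, and genes kept that passed filterByExpr in each assay. TE was the interaction contrast, tested by quasi-likelihood with Benjamini-Hochberg adjustment over all 14152 genes at 0.05. The fit was also run on simulated counts, which had less spread than these libraries and no library set apart from its group. That run cannot show how the fit handles a library such as Ribo-seq PP2 replicate 2. limma 3.58.1 and DESeq2 1.42.0 gave alternatives. Named genes were those that passed, then the protein-coding genes with at least 10 CPM in each assay ranked by p on each side (up to 10), members that define a list or have its largest TE changes, and examples of RNA changes with a TE change or a footprint change within 0.25 of 0; others are marked where named. The members and lists were chosen with earlier results of these data known. Of 890 list members 885 were in the table, 61 under an older symbol, and 842 were tested; the other members were not analysed here. Deviations of same-numbered libraries correlated at -0.14 to 0.1, which cannot decide whether these libraries were paired. Intervals on counts would cover counting error only. Promoters, miRNAs and gene positions are from RefSeq (GRCh38.p14).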

Additional observations from a re-analysis of the deposited data

How the results depend on the processing

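The 4 TE calls became 7 with scaling from nuclear protein-coding genes, 87 with no low-count filter, 2 with a mean of 50 counts, 222 by the DESeq2 Wald test, 1934 by limma voom with sample weights, 173 with group weights, 0 with PP1 and PP2 libraries alone, 0 without Ribo-seq PP2 replicates 1 and 3, and 0 without replicate 3 of PP2 in each assay. Without RNA-seq PP2 replicate 3 and Ribo-seq PP2 replicates 1 and 3, chosen after seeing the data, 13 genes passed. Leaving out single libraries gave 0 to 1195 TE calls, 621 to 4225 footprint calls and 559 to 2618 RNA calls; the highest of each came without Ribo-seq PP2 replicate 2. Footprint calls, 2213 in all, became 1418 with a mean of 50 counts, 3682 with voom sample weights, 804 without Ribo-seq PP2 replicates 1 and 3, and 755 in a fit of that assay alone. RNA calls, 1801 in all, became 8057 and 4881 with voom sample and group weights, 2936 without Ribo-seq PP2 replicates 1 and 3, 4285 under the combination chosen later, and 4533 in a fit of that assay alone. The causes were not tested.

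With the replicate block that paired RNA and Ribo libraries of a stage and number, 2 genes passed in TE. With replicate number as the block 3 passed, with 1622 footprint and 1340 RNA calls. The correlations of same-numbered deviations lay between -0.14 and 0.10. In a group of 2 libraries the deviations mirror each other, so both replicates give the same value by construction. These correlations therefore cannot decide whether same-numbered libraries were paired.

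Of 74 genes followed, 65 kept the direction of TE in every alternative run. Without Ribo-seq PP2 replicates 1 and 3 the TE change was -0.12 for HSP90B1, -0.22 for XBP1, -0.05 for FN1 and -0.34 for APOB, and with RNA-seq PP2 replicate 3 left out too it was -0.17 for FN1, -0.12 for APOB, -0.06 for PDX1 and -0.15 for SOX9. PDX1 and SOX9 were at -0.14 and -0.23 with voom sample weights and at -0.02 and -0.08 without RNA-seq PP2 replicate 3. DDIT3 was at -0.09 with voom group weights and -0.03 without Ribo-seq PP2 replicate 3. KIRREL2 was at 0.20 with no filter, 0.04 with voom group weights and 0.01 with the paired replicate block. CUBN was at 0.20 with no filter, 0.06 with voom sample weights and 0.09 without replicate 3 of PP2 in each assay. Over fits that left out 1 library the TE change ran from -0.02 to 0.79 for PDX1, -0.08 to 0.68 for SOX9, -0.03 to 1.41 for DDIT3, -0.63 to 0.95 for KIRREL2 and -0.26 to 0.07 for CUBN. Depth limits genes with few footprints, since PP1 Ribo-seq libraries held 4710335 and 5515246 counts, most of them outside protein-coding genes.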

Other observations

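Replication-dependent histone genes, which package newly made DNA, rose in 9 of 36 tested members in footprints, against 6.79% of all tested genes, and in 11 in RNA, against 4.85%, and 0 fell in either assay. Their median TE change was -0.26, with 11 of 36 above 0, and it was 0.52 without RNA-seq PP2 replicate 3 and -0.68 without Ribo-seq PP2 replicate 1. Proteins encoded in the mitochondrial genome had a median TE change of 0.72 with 11 of 13 above 0. In footprints and RNA 0 of the 13 passed, against 6.79% and 4.85% of all tested genes that rose and 8.85% and 7.87% that fell. Their median footprint change was -2.22, 0.35 and 1.02 in Ribo-seq PP2 replicates 1, 2 and 3. Their median RNA change was -0.21, -0.01 and -2.80 in RNA-seq PP2 replicates 1, 2 and 3, and the TE median ran from -0.10 without Ribo-seq PP2 replicate 3 to 1.22 without Ribo-seq PP2 replicate 1. Cell cycle and DNA replication genes rose in 5 of 30 members in each assay, against 6.79% of all tested genes in footprints and 4.85% in RNA. In this list 0 fell in either assay.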
